A study of Mus musculus with 9 samples.

Results

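The genes described here are 5 glutathione peroxidases (Gpx1, Gpx3, Gpx4, Gpx7 and Gpx8) and 5 antioxidant target genes of the transcription factor NRF2 (Hmox1, Nqo1, Gclm, Srxn1 and Txnrd1). They were taken by name from a table of 22068 mouse genes, and all 10 passed the expression filter that left 10100 genes for testing. RNA was sequenced from primary C57Bl/6 mouse embryonic fibroblasts (MEFs) at passage 2, which had been electroporated with 1 of 3 plasmids. The metatherian CRX plasmid carried the opossum gene and the eutherian CRX plasmid the human gene, each with a V5 tag, while the control plasmid carried neither, and each condition had 3 libraries. Every plasmid, the control included, carried puromycin resistance, and every library came from cells kept in puromycin for 5 days, with 48 h of recovery afterwards in the labels. CRX is a homeobox factor of photoreceptors, the cells tested are fibroblasts that do not normally make it, and the series asks whether the orthologues differ in what they do.

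Glutathione peroxidases reduce hydrogen peroxide or lipid peroxides, many but not all of them at the expense of glutathione, and several do so with the amino acid selenocysteine. NRF2, encoded by Nfe2l2, is held in the cytoplasm by KEAP1 and degraded until oxidants or electrophiles modify KEAP1. It then enters the nucleus with a small MAF partner, binds antioxidant response elements and drives genes for glutathione synthesis, thioredoxin recycling, quinone reduction and haem breakdown. Cultured fibroblasts grow in more oxygen than they meet in tissue, and such enzymes are part of their normal defence.

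The peroxidases differ at their catalytic residue, and the codon for it is shown because it divides the family into members whose translation needs selenium and members whose translation does not. The lines give the coding strand 5′ to 3′ from GENCODE M21 on GRCm38, with the catalytic codon in capitals.
Gpx1: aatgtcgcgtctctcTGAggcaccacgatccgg
Gpx3: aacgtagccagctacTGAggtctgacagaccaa
Gpx4: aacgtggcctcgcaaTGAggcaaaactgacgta
Gpx7: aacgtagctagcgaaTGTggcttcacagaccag
Gpx8: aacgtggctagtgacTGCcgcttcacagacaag
Txnrd1: atcctccagtctggctgcTGAggt
The codon lies in exon 1 of Gpx1 (chr9:108339451-108339453, plus strand, codon 47), exon 2 of Gpx3 (chr11:54907256-54907258, plus strand, codon 73) and exon 3 of Gpx4 (chr10:80054737-80054739, plus strand, codon 73). In Gpx1, Gpx3 and Gpx4 it is TGA, which the annotation marks as selenocysteine. Gpx7 (chr4:108403430-108403432, minus strand, exon 2, codon 56) has the cysteine codon TGT there and Gpx8 (chr13:113045661-113045663, minus strand, exon 2, codon 79) has the cysteine codon TGC. The place in Gpx7 and Gpx8 was found by aligning their bases to those of Gpx3. Thioredoxin reductase 1 is the other selenoprotein among the 10 genes, and its TGA is codon 498 of 499 (chr10:82896037-82896039, plus strand, exon 14).

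Antioxidant response elements were looked for in the RefSeq promoter windows of the genes, from 250 bases before to 50 bases after each start on GRCm38.p6. Windows were held for 9 of the 10 genes (14 windows, Hmox1 not matched). The core TGACNNNGC, read on both strands, was found in 12.4% of all 32851 mouse promoter windows and in a window of Gclm, of Srxn1 and of Txnrd1, each time on the minus strand, so that the capitals below read as its reverse complement GCNNNGTCA.
Gclm: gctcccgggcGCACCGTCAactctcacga
Srxn1: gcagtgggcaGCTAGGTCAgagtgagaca
Txnrd1: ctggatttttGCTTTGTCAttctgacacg
The Gclm match began 134 bases before the start (shown chr3:122245413-122245441), the Srxn1 match 28 bases after it (chr2:152105542-152105570) and the Txnrd1 match 92 bases before one of its 3 annotated starts (chr10:82859104-82859132), and all 3 genes lie on the plus strand. The CRX and OTX core TAATCC was found in 7.06% of all windows and in 0 of the 14 windows of these genes. A match is only a run of letters, and these windows leave out more distant elements.

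The libraries held 54145701 to 94699657 counts each. In every condition the library numbered 3 stood apart from the other 2. On the first principal component, which carried 56.0% of the variance, it lay at 6.84 in the control (-32.3 and -21.4 for the others), at 55.0 with eutherian CRX (-27.4 and -30.9) and at 36.8 with metatherian CRX (0.70 and 12.7). A chi-square of counts over genes, per degree of freedom, was 22.03 to 70.4 between libraries 1 and 2 of a condition and 271 to 801 between either of them and library 3. All 9 fibroblast markers were present at over 1 CPM, but their summed level was 24813 to 33242 CPM in the control, 7790 to 23518 CPM with eutherian CRX (lowest in the third library) and 8427 to 18200 CPM with metatherian CRX, and at an unadjusted p under 0.05 metatherian CRX had 1 of the 9 higher and 7 lower (9.04% and 10.5% of all genes), eutherian CRX 0 higher and 3 lower (2.23% and 6.34%). Of 10 macrophage markers Aif1 and Fcgr1 stayed under 1 CPM and 8 passed it in at least 1 library, with Lyz2 at up to 23.8 CPM, Csf1r 6.73 CPM, Cd68 6.01 CPM and Emr1 3.14 CPM, and the list summed to 14.6 to 45.5 CPM in the control, 9.73 to 27.1 CPM with eutherian CRX and 7.62 to 14.7 CPM with metatherian CRX. Of 7 adipocyte markers Adipoq, Plin1, Cfd and Cidec were at or near 0, while Fabp4 reached 64.9 CPM, Lpl 40.0 CPM and Pparg 17.9 CPM, and the sums were 49.1 to 105, 38.1 to 94.9 and 46.0 to 53.4 CPM. The endothelial sums, mostly Kdr, were 13.1 to 17.1, 14.2 to 18.7 and 11.4 to 18.5 CPM. Of 5 epithelial markers Epcam, Cdh1 and Krt8 stayed under 1 CPM, while Krt18 passed it and Krt19 reached 23.9 CPM, and the sums were 7.74 to 16.3, 8.52 to 31.0 and 18.6 to 26.1 CPM. Reads assigned to mouse Crx numbered 627, 995 and 313 in the eutherian CRX libraries, 0 in each control library and 4, 0 and 0 with metatherian CRX, so they check the human construct only. CPM are counts of a gene relative to the summed counts of all tested genes in the library, scaled by edgeR's TMM factors.

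With all 9 libraries in 1 edgeR fit, 0 of the 10 genes passed an adjusted p under 0.05 in any of the 3 comparisons, and the genes divided into a few with sizeable differences and a majority with small ones. Nqo1 was 2.07-fold higher with metatherian CRX than in the control, and 1.75-fold higher than with eutherian CRX. Gpx3 was at 0.471 of the control level with eutherian CRX and 0.624 with metatherian CRX, and Gpx7 at 0.717 and 0.641. Gpx1, Gpx4, Gpx8, Gclm, Srxn1 and Txnrd1 had log2 fold changes between -0.12 and 0.14 in all 3 comparisons, and Hmox1 varied more between libraries than between conditions.

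The share of all tested genes called gives the background for these counts. In metatherian CRX against control 0.0297% of the 10100 genes passed the adjusted threshold, and 19.5% had an unadjusted p under 0.05, against 3 of the 10 genes here (Nqo1 higher, Gpx3 and Gpx7 lower). DESeq2 called 2 of the 10 in that comparison, Nqo1 and Gpx3, and 9.94% of all genes. In eutherian CRX against control 0.604% of all genes passed (0.584% lower, 0.0198% higher) and 8.56% had an unadjusted p under 0.05, against 1 of the 10 (Gpx3 lower), which was also the 1 called by DESeq2, beside 3.30% of all genes. In metatherian against eutherian CRX 0% passed and 11.5% had an unadjusted p under 0.05, against 1 of the 10 (Nqo1 higher), again the 1 called by DESeq2, beside 3.14% of all genes. The 3 libraries of each condition did not overlap in CPM for 3 of the 10 genes in metatherian CRX against control (Nqo1, Gpx3 and Gpx7), beside 23.3% of all genes. This held for 1 of the 10 (Gpx7) in eutherian CRX against control, beside 14.0% of all genes (6.21% higher, 7.80% lower), and for 1 (Nqo1) between the orthologues, beside 11.5% (6.23% higher, 5.30% lower). The median log2 fold change of the 10 genes was 0.07, 0.09 and 0.02 in these comparisons, beside -0.01, 0.00 and -0.01 over all tested genes. Both comparisons with the control use the same 3 control libraries, so they are not independent of each other. The labels do not say that replicates are separate cultures, so the p-values measure only the spread between these samples, which may be technical, and in RNA from whole cultures fewer cells of a type and less RNA per cell cannot be told apart.

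**Figure D1:**
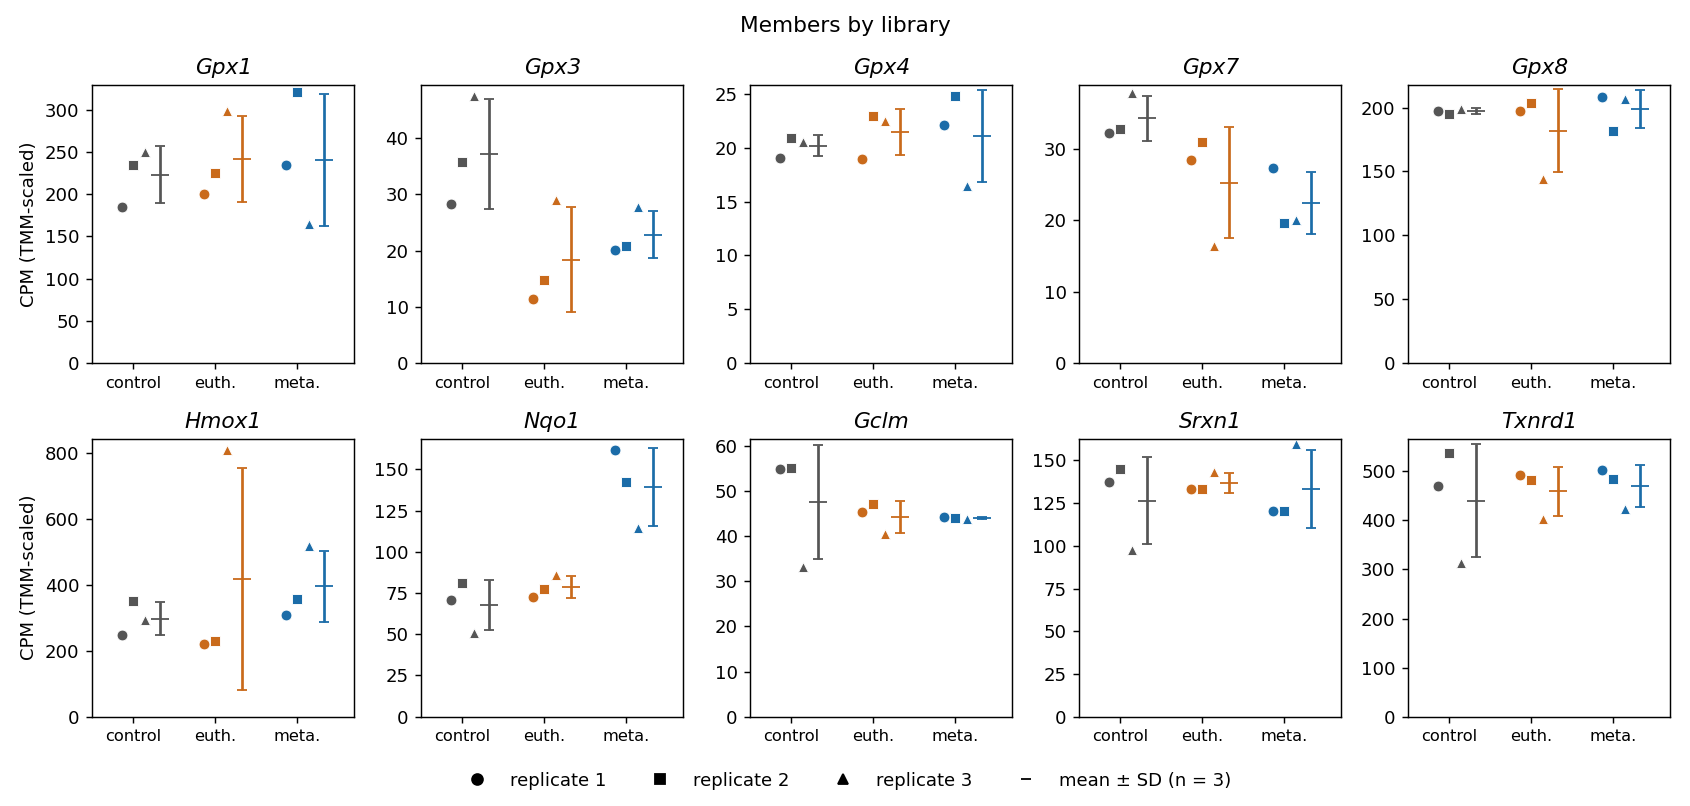
TMM-scaled CPM (vertical axes, from 0) of the 10 genes in every library, by condition, with replicate numbers as symbols and the mean ± SD (n = 3) beside them. Nqo1 lay at 115 to 161 CPM with metatherian CRX and at most 85.8 CPM in the other 6 libraries, and Hmox1 reached 809 CPM in 1 eutherian CRX library.

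Compared per length of transcript, the most abundant glutathione peroxidase in control MEFs was Gpx1, the general cytosolic and mitochondrial enzyme, at 213 ± 32.1 FPKM (SD, n = 3). Gpx8, a membrane protein of the endoplasmic reticulum, followed at 194 ± 2.19 FPKM, and Hmox1, haem oxygenase 1, at 189 ± 32.5 FPKM. The control ranges of these 3 genes overlapped. Txnrd1, the cytosolic thioredoxin reductase, came next at 109 ± 28.5 FPKM, below all 3 and above all the rest in every control library. Srxn1, sulfiredoxin, which repairs overoxidised peroxiredoxins, was at 45.0 ± 9.06 FPKM and Nqo1, a quinone reductase, at 43.5 ± 9.81 FPKM, with overlapping ranges. Gpx7, a lumenal enzyme of the endoplasmic reticulum, was at 28.3 ± 2.57 FPKM, Gpx3, the secreted plasma peroxidase, at 24.5 ± 6.40 FPKM and Gclm, the modifier subunit of glutamate-cysteine ligase, at 23.0 ± 6.09 FPKM, and neighbours in this order overlapped. Gpx4, which reduces lipid peroxides in membranes, was lowest at 13.2 ± 0.635 FPKM. Its level is uncertain, because 79.5% of the transcript used is matched at 99.7% identity by the transcribed pseudogene Gpx4-ps2, and how the counting shared such reads is not known. No exon of another listed gene overlapped those of the 10 genes, and Gpx2, Gpx5 and Gpx6 had 0 counts in every library, under a floor of 3 counts.

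**Figure D2:**
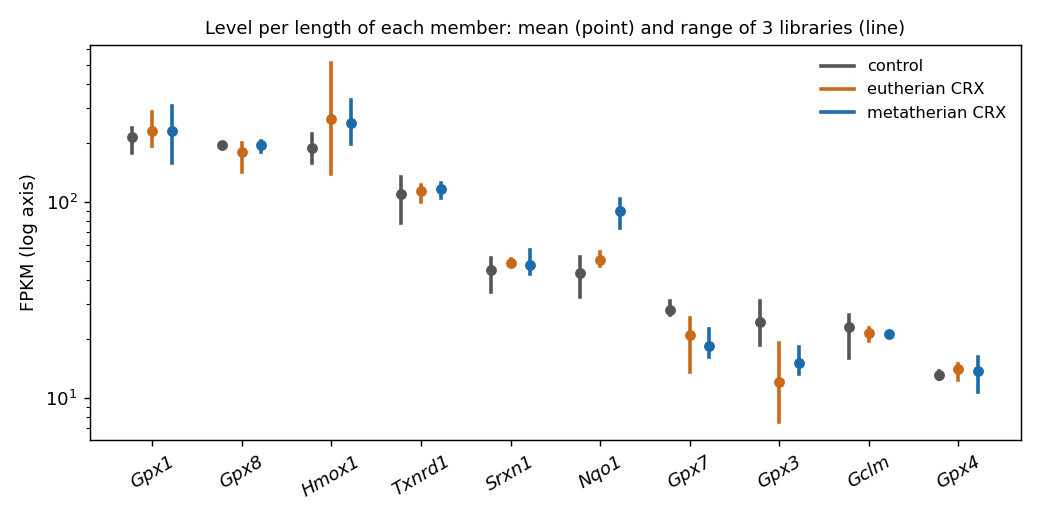
FPKM on a log axis for the 10 genes, ordered by their control mean, with the mean as a point and the range of 3 libraries as a line for each condition. Gpx1, Gpx8 and Hmox1 were the 3 highest in the control and Gpx4 the lowest, at 13.2 FPKM.

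Nqo1 lies on chromosome 8 (chr8:107388225-107403205, minus strand, mm10) and encodes NAD(P)H quinone dehydrogenase 1, often used as a readout of NRF2. In the control it was at 70.7, 80.9 and 51.0 CPM, with eutherian CRX at 72.7, 77.4 and 85.8 CPM, and with metatherian CRX at 161, 142 and 115 CPM. The lowest metatherian CRX library lay above the highest of the other 6 libraries, while the eutherian CRX and control libraries overlapped. In metatherian CRX against control the log2 fold change was 1.05 ± 0.18 (standard error), with a 95% interval of 0.63 to 1.47 and an adjusted p of 0.072, and the gene was higher in 3 of 3 same-numbered pairs. Against eutherian CRX the difference was 0.80 ± 0.18 (interval 0.38 to 1.23, adjusted p 0.27, 3 of 3 pairs higher). Between eutherian CRX and control it was 0.25, with an interval of -0.17 to 0.67 and an adjusted p of 0.79. Groups that did not overlap, in the higher direction, were found for 11.0% of all genes in metatherian CRX against control and for 6.23% against eutherian CRX. Leaving out the third eutherian CRX library gave Nqo1 an adjusted p of 0.020 between the orthologues, at a log2 fold change of 1.05, and of 0.0067 against the control, at 1.07. Leaving out the third metatherian CRX library gave 0.042 against the control, at 1.13. The other fits without 1 library gave an adjusted p of 0.099 to 0.39 against the control and 0.10 to 0.999 between the orthologues. The fibroblast marker sum was lower and the epithelial marker sum higher in every metatherian CRX library than in any control library. Col1a1, Col1a2, Col3a1 and Vim made up most of the fibroblast sum. Of the 9 fibroblast markers, 6 were lower without overlap and 1 higher, Pdgfra at a log2 fold change of 0.58, while Vim had -0.08. Krt19 and Krt18 made up most of the epithelial sum, and Epcam, Cdh1 and Krt8 stayed under 1 CPM. Of the 2 tested macrophage markers, Cd68 was below the control without overlap, at 2.03 to 3.40 CPM against 4.64 to 6.01 CPM. Lyz2 overlapped with the control, at 0.52 to 5.03 CPM against 4.26 to 23.8 CPM. Of the 3 tested adipocyte markers, Lpl was below the control without overlap, at 3.18 to 12.9 CPM against 25.0 to 40.0 CPM. Fabp4 and Pparg overlapped with the control, at log2 fold changes of -0.06 and -0.11 with metatherian CRX. The part of these markers in the Nqo1 difference was not tested.

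Gpx3 (chr11:54902854-54910382, plus strand) showed the reverse direction. The control libraries held 28.3, 35.7 and 47.6 CPM, the eutherian CRX libraries 11.5, 14.7 and 29.0 CPM, and the metatherian CRX libraries 20.0, 20.8 and 27.7 CPM. All metatherian CRX libraries were below all control libraries, and the eutherian CRX libraries overlapped with the control only through the third of them. The log2 fold change was -1.09 ± 0.18 for eutherian CRX against control, with an interval of -1.51 to -0.67 and an adjusted p of 0.066, and -0.68 ± 0.18 for metatherian CRX against control (interval -1.10 to -0.26, adjusted p 0.12). Each was lower in 3 of 3 same-numbered pairs. In a fit without the replicate number as a block, metatherian CRX against control had an unadjusted p of 0.074 in place of 0.0063. The orthologues differed by 0.40 with an interval of -0.01 to 0.82 and an adjusted p of 0.44, so neither a difference between them nor its absence was shown. Without the third metatherian CRX library eutherian CRX against control had an adjusted p of 0.043, at a log2 fold change of -1.10, and without the third eutherian CRX library metatherian CRX against control had 0.020, at -0.68. The other fits without 1 library gave an adjusted p of 0.061 to 0.44 for eutherian CRX and 0.13 to 0.39 for metatherian CRX. The fibroblast marker sum, mostly Col1a1, Col1a2, Col3a1 and Vim, was also lower in every CRX library than in any control library. Vim itself had log2 fold changes of -0.06 with eutherian and -0.08 with metatherian CRX. The part of the lower marker sum in the Gpx3 result was not tested.

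Gpx7 (chr4:108400217-108406713, minus strand) was also lower with both orthologues in 3 of 3 pairs. It was at 32.2, 32.8 and 37.9 CPM in the control, 28.5, 31.0 and 16.4 CPM with eutherian CRX and 27.4, 19.6 and 20.1 CPM with metatherian CRX. Neither CRX group overlapped with the control, which was the case in the lower direction for 7.80% of all genes with eutherian and 12.3% with metatherian CRX. The log2 fold change was -0.64 ± 0.24 with metatherian CRX (interval -1.21 to -0.07, adjusted p 0.21) and -0.48 ± 0.24 with eutherian CRX (interval -1.05 to 0.09, adjusted p 0.68). The direction held in every alternative run, but single libraries moved the size of both. With libraries left out the log2 fold change ran from -0.84 to -0.37 with metatherian CRX and from -0.73 to -0.13 with eutherian CRX. Without the first control library the values were -0.81 and -0.65. Without the third control library the values were -0.37 and -0.23, without the third eutherian CRX library the eutherian value was -0.20, and without all 3 libraries numbered 3 it was -0.13.

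For the other peroxidases the intervals of the fit of 9 libraries spanned 0 in every comparison. Gpx8 (chr13:113042763-113046388, minus strand) lay between 195 and 199 CPM in the control, between 144 and 204 CPM with eutherian CRX and between 182 and 208 CPM with metatherian CRX. The single low value of 144 CPM was the third eutherian CRX library. Its log2 fold change was 0.01 with metatherian CRX (interval -0.33 to 0.35, adjusted p 0.97) and -0.12 with eutherian CRX (interval -0.46 to 0.21, adjusted p 0.89). Gpx1 (chr9:108339080-108340342, plus strand) ranged from 185 to 249 CPM in the control, from 201 to 298 CPM with eutherian CRX and from 165 to 321 CPM with metatherian CRX. Its within-group ranges were wider than any difference of means, with log2 fold changes of 0.11 and 0.12 against control and intervals reaching from -0.49 to 0.71. The lowest value, 165 CPM, was the third metatherian CRX library, and without it the log2 fold change with metatherian CRX was 0.44 (adjusted p 0.090). Gpx4 (chr10:80047166-80056439, plus strand) was at 19.1 to 20.9, 19.0 to 22.9 and 16.4 to 24.8 CPM in the 3 conditions, with log2 fold changes of 0.05 and 0.09. By catalytic codon, log2 fold changes against the control were -1.09 and -0.68 for Gpx3 and 0.05 to 0.12 for Gpx1 and Gpx4 among the selenocysteine peroxidases, and -0.48 and -0.64 for Gpx7 and -0.12 and 0.01 for Gpx8 among the cysteine peroxidases, with eutherian CRX first, and none passed the adjusted threshold.

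**Figure D3:**
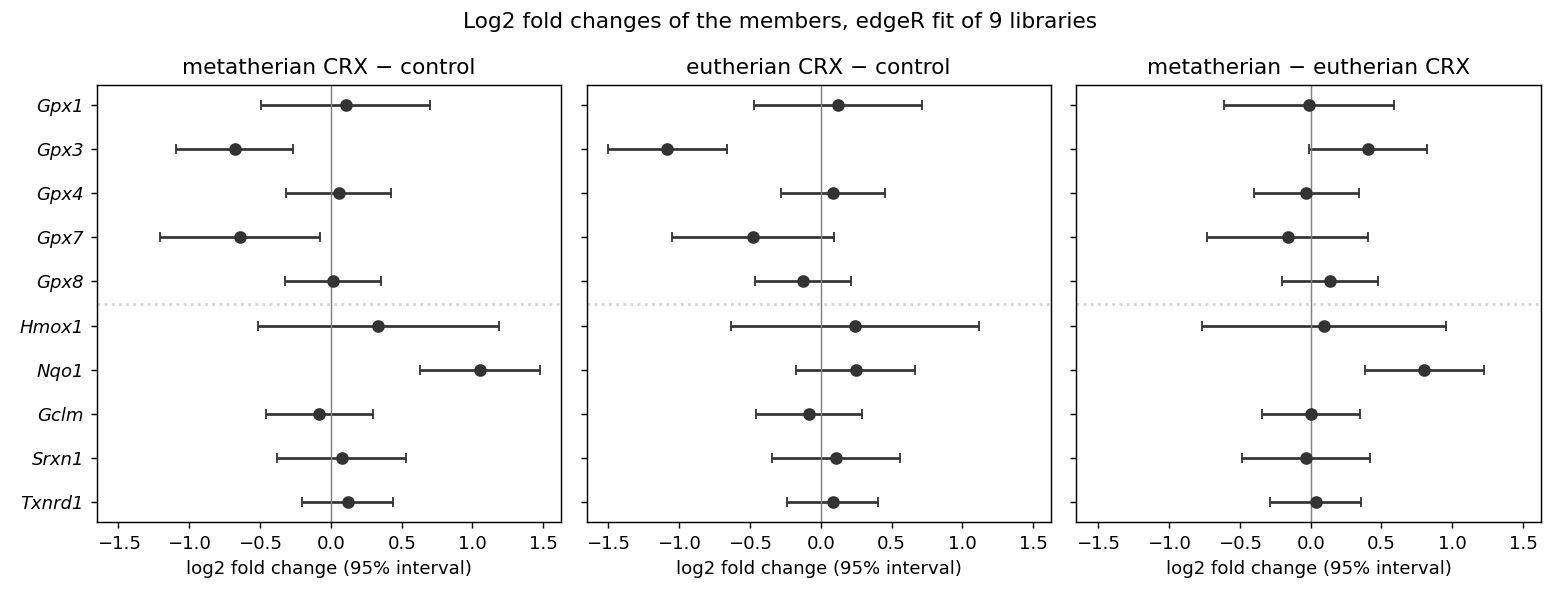
Log2 fold changes with 95% intervals for the 10 genes in the 3 comparisons, from the edgeR fit of 9 libraries, with the glutathione peroxidases above the dotted line and the NRF2 targets under it. The interval of Nqo1 lay above 0 in both comparisons of metatherian CRX, that of Gpx3 below 0 in both comparisons with the control in this fit with the replicate block, and no gene passed the adjusted threshold.

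Hmox1 (chr8:75093618-75100593, plus strand) degrades haem and is driven by NRF2 and held down by BACH1. It was at 248, 350.5 and 295 CPM in the control, 219.8, 229 and 809 CPM with eutherian CRX and 309, 359 and 518 CPM with metatherian CRX. The third eutherian CRX library was above the other 8, while the other 2 of its condition were below all control libraries. This was the widest spread of the 10 genes within a condition, with a coefficient of variation of 80.5% for eutherian CRX against 17.2% in the control. The log2 fold change with eutherian CRX was 0.24 ± 0.37 and became -0.29 without the third eutherian CRX library. With metatherian CRX it was 0.33 ± 0.36 (interval -0.52 to 1.19, adjusted p 0.64), higher in 3 of 3 pairs, and became -0.01 without the third control library. Between the orthologues it was 0.09 (adjusted p 0.95) and became 0.68 without the third eutherian CRX library (adjusted p 0.13). The library with the high Hmox1 value was also the one with the lowest fibroblast marker sum, 7790 CPM, and with the highest level of Sqstm1, 1098 CPM against 482 to 803 CPM in the other 8.

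Gclm, Srxn1 and Txnrd1, the 3 genes whose windows held the response element core, had intervals spanning 0 in every comparison of the fit of 9 libraries, with a control group widened by the library numbered 3, the lowest of the 9 for each gene. Gclm (chr3:122245557-122267215, plus strand) was at 54.8, 55.1 and 33.1 CPM in the control, 45.2, 47.2 and 40.4 CPM with eutherian CRX and 44.3, 44.0 and 43.8 CPM with metatherian CRX, so that the CRX libraries all lay between the extremes of the control. Its log2 fold change was -0.08 in both comparisons with the control, with intervals between -0.46 and 0.29. The third control library was far below the other 2, and without it the values were -0.28 for both metatherian and eutherian CRX (adjusted p 0.29 and 0.63). Srxn1 (chr2:152105524-152111376, plus strand) was at 97.4 to 145 CPM in the control, 133 to 143 CPM with eutherian CRX and 120.1 to 159.7 CPM with metatherian CRX, with log2 fold changes of 0.08 and 0.11 for metatherian and eutherian CRX, which became -0.18 and -0.13 without the third control library (adjusted p 0.54 and 0.99). Txnrd1 (chr10:82833951-82897724, plus strand) was at 313 to 537 CPM in the control, 402 to 492 CPM with eutherian CRX and 422 to 502 CPM with metatherian CRX, with log2 fold changes of 0.12 and 0.08, and -0.02 and -0.05 without that library. The third control library was the lowest of the 9 for Nqo1, Gclm, Srxn1 and Txnrd1, at 51.0, 33.1, 97.4 and 313 CPM.

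Since the libraries numbered 3 stood apart in each condition, all comparisons were also fitted without them, on 2 libraries a condition. In that fit 22.3% of all genes passed the adjusted threshold in metatherian CRX against control, and 4 of the 10 did. These were Nqo1 at a log2 fold change of 1.00 (adjusted p 0.0012), Gpx3 at -0.64 (0.0080), Gpx1 at 0.40 (0.024) and Gclm at -0.32 (0.029). In eutherian CRX against control 3.43% of all genes passed, and of the 10 only Gpx3 did, at -1.30 (0.0075). Between the orthologues 22.6% of all genes passed, and 4 of the 10 were higher with metatherian CRX, namely Nqo1 at 1.02 (0.0014), Gpx3 at 0.65 (0.0084), Gpx1 at 0.37 (0.032) and Hmox1 at 0.57 (0.014). Gpx7 with metatherian CRX was at -0.48 in it (0.064), Srxn1 at -0.23 (0.062) and Gpx4 at 0.23 (0.14), while Gpx8 and Txnrd1 were at -0.01 and -0.03. These libraries were left out with their values known, so the fit shows how far the calls rest on them.

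**Figure D4:**
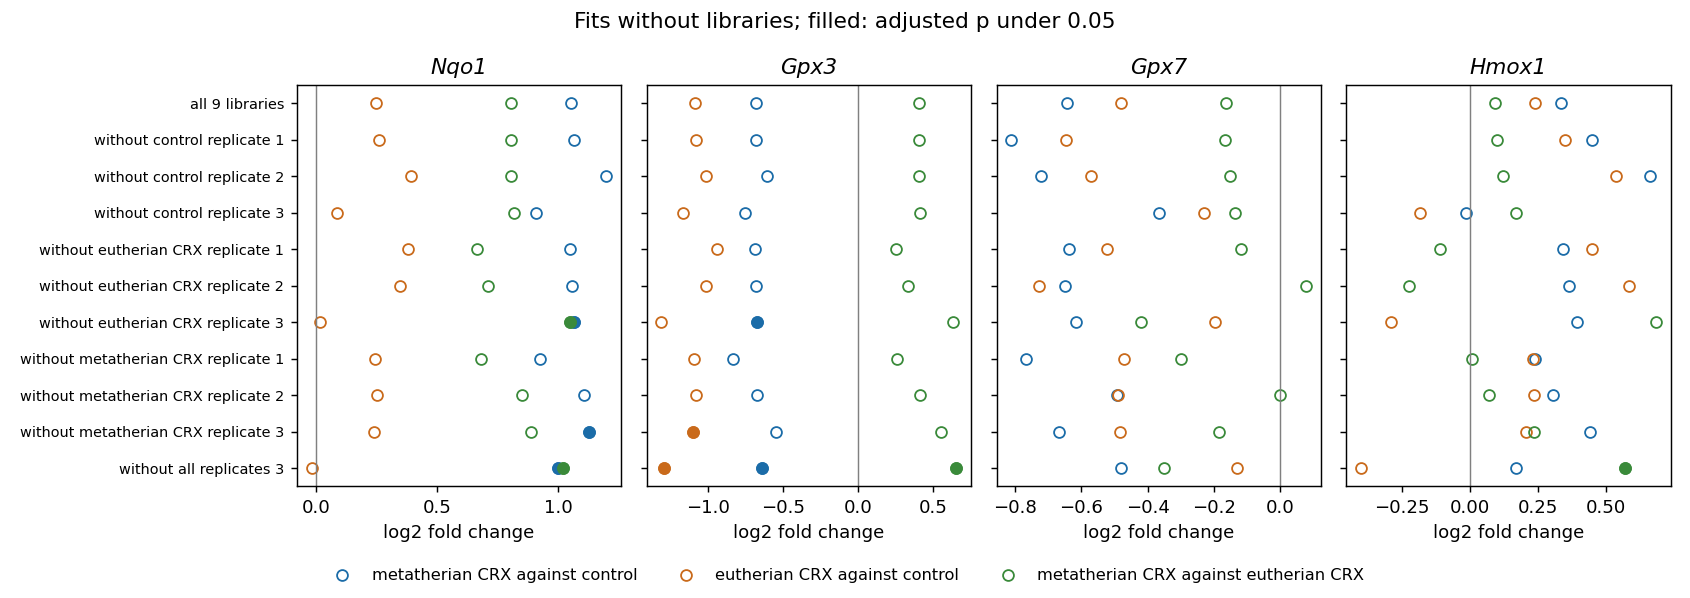
Log2 fold changes of Nqo1, Gpx3, Gpx7 and Hmox1 (horizontal axes) in the fit of 9 libraries, in fits with 1 library left out and in the fit without the 3 libraries numbered 3; colours mark the comparison and filled points an adjusted p under 0.05. Nqo1 with metatherian CRX and Gpx3 with either orthologue kept their direction throughout, while Hmox1 lay on both sides of 0.

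The NRF2 pathway itself was followed through 11 regulator genes, of which 10 were tested and 0 passed the adjusted threshold. Nfe2l2, which encodes NRF2, was at 207 to 265 CPM in the control, 228 to 238 CPM with eutherian CRX and 232 to 274 CPM with metatherian CRX, with log2 fold changes of -0.03 for eutherian and 0.08 for metatherian CRX. Its inhibitor Keap1 was at 72.4 to 82.8, 72.8 to 80.4 and 47.5 to 75.5 CPM, with a log2 fold change of -0.28 with metatherian CRX (adjusted p 0.29) and 0.01 with eutherian CRX. Of the 10 regulators, 1 had an unadjusted p under 0.05 with metatherian CRX (19.5% of all genes, 10.5% lower), the small MAF protein gene Maff at -0.37 (adjusted p 0.21). With eutherian CRX there were 2 (8.56% of all genes, 6.34% lower), Maff at -0.33 (adjusted p 0.57) and the repressor gene Bach1 at -0.28 (adjusted p 0.47). Cul3 and Rbx1, of the ligase that KEAP1 recruits, had log2 fold changes of 0.28 and 0.13 with metatherian CRX and 0.09 and 0.12 with eutherian CRX. The remaining regulators were Mafg (-0.03 and -0.07), Mafk (-0.06 and -0.30), Nfe2l1 (-0.15 and -0.11) and Sqstm1 (0.21 and 0.14), given for metatherian and then eutherian CRX, and Bach2, at 2.0 to 5.8 CPM, did not pass the filter.

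A further list of 32 NRF2 targets, 27 of them tested, had 0 genes past the adjusted threshold in any comparison. In metatherian CRX against control 8 had an unadjusted p under 0.05 and were higher (9.04% of all genes) and 2 were lower (10.5% of all genes), and the median log2 fold change was 0.14. In eutherian CRX against control 1 was higher and 0 were lower (2.23% and 6.34% of all genes), with a median of 0.11, and between the orthologues 4 were higher and 2 lower with metatherian CRX (7.41% and 4.13% of all genes). The 8 genes became 6 to 10 when single libraries were left out, and the 2 became 0 to 4. In the same fits 1019 to 2598 of the 10100 tested genes had an unadjusted p under 0.05 in either direction, against 1969 with 9 libraries. The change in the list therefore cannot be told apart from the change over all genes.

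The 6 of these targets with the smallest p were all higher with metatherian CRX. The same libraries had the lower fibroblast and higher epithelial marker sums given with Nqo1, and the part of these markers was not tested. Gclc, the catalytic subunit that pairs with the Gclm product, was at 67.5, 76.0 and 68.8 CPM in the control, 62.0, 62.1 and 93.5 CPM with eutherian CRX and 104, 128 and 113 CPM with metatherian CRX. All metatherian CRX libraries were above the other 6, as for Nqo1, with a log2 fold change of 0.69 ± 0.16 against the control (adjusted p 0.11) and 0.02 for eutherian CRX. Prdx1, a peroxiredoxin, was at 295 to 362 CPM in the control, 395 to 404 CPM with eutherian CRX and 448 to 619 CPM with metatherian CRX, without overlap between the 3 conditions, at log2 fold changes of 0.66 and 0.27 (adjusted p 0.10 and 0.72). G6pdx, the first enzyme of the pentose phosphate pathway and a source of NADPH, was at 77.8 to 84.0, 89.1 to 90.7 and 97.6 to 107 CPM, also without overlap, at 0.32 and 0.13 (adjusted p 0.12 and 0.75). Ugt1a6a, a glucuronosyltransferase, had 0.97 and 0.27, Ptgr1, a prostaglandin reductase, 0.47 and 0.26, and Akr1b8, an aldo-keto reductase, 0.68 and 0.29, with adjusted p of 0.10, 0.096 and 0.14 for metatherian CRX. In these last 3 genes the third eutherian CRX library, at 11.2, 65.8 and 97.9 CPM, was the highest of its condition and lay within the metatherian CRX range for Ugt1a6a and Ptgr1 and just above it for Akr1b8.

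**Figure D5:**
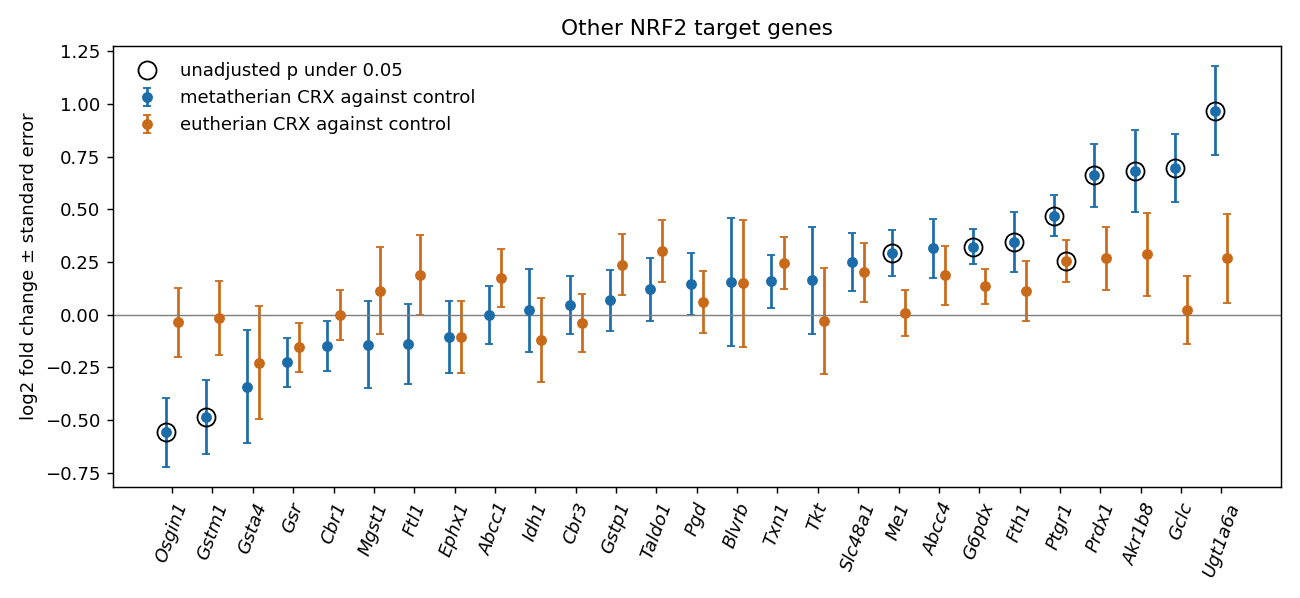
Log2 fold change ± standard error of the 27 tested further NRF2 targets, ordered by the value for metatherian CRX against control, beside that for eutherian CRX; rings mark an unadjusted p under 0.05. The points run from -0.56 (Osgin1) to 0.97 (Ugt1a6a) for metatherian CRX and from -0.23 to 0.30 for eutherian CRX, and none passed the adjusted threshold.

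Other enzymes that handle peroxide, superoxide and glutathione numbered 21, of which 17 were tested. Taking an unadjusted p under 0.05, metatherian CRX gave 2 that were higher and 2 that were lower (9.04% and 10.5% of all genes), eutherian CRX gave 2 and 1 (2.23% and 6.34% of all genes), and 0 passed after adjustment. Gss, which completes glutathione synthesis, was at 72.7 to 85.5 CPM in the control, 90.9 to 118 CPM with eutherian CRX and 93.8 to 127 CPM with metatherian CRX, so both CRX groups were above the control, at log2 fold changes of 0.41 and 0.59 (adjusted p 0.57 and 0.14). Sesn2, a stress-induced sestrin, was at 92.9 to 102 CPM in the control, 88.7 to 97.1 CPM with eutherian CRX and 55.9 to 82.8 CPM with metatherian CRX, below the other 6 libraries, at -0.50 for metatherian CRX (adjusted p 0.10). The superoxide dismutase genes Sod1 and Sod3 had -0.22 and -0.91 with metatherian CRX and -0.12 and -0.94 with eutherian CRX. Sod3 was at 104 to 143 CPM in the control, 92.0, 102 and 36.4 CPM with eutherian CRX and 93.9, 115 and 31.7 CPM with metatherian CRX. Its library numbered 3 was thus the lowest of each CRX condition, and its adjusted p was 0.58 with eutherian and 0.27 with metatherian CRX. The glutaredoxin genes Glrx and Glrx2 had 0.26 and 0.27 with metatherian CRX and 0.56 and 0.20 with eutherian CRX.

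Selenium supply and use were followed because Gpx1, Gpx3, Gpx4 and Txnrd1 need it. Of 6 genes for selenocysteine synthesis and insertion, all were tested and 1 had an unadjusted p under 0.05, the elongation factor gene Eefsec at -0.36 with metatherian CRX (adjusted p 0.20, 19.5% of all genes). Of 14 other selenoprotein genes 13 were listed and 12 tested, and each comparison with the control gave 1 higher and 1 lower whose unadjusted p was under 0.05, beside 19.5% of all genes with metatherian and 8.56% with eutherian CRX. The lower gene was Dio3, the deiodinase that inactivates thyroid hormone, at 16.7, 19.0 and 2.87 CPM in the control, 8.61, 9.60 and 1.62 CPM with eutherian CRX and 5.71, 6.27 and 1.89 CPM with metatherian CRX. The library numbered 3 was the lowest of each condition, and the log2 fold changes were -0.93 and -1.26 for eutherian and metatherian CRX (adjusted p 0.22 and 0.082). The higher gene was Ept1, also named Selenoi, a phospholipid-synthesis enzyme, at 82.4 to 91.7, 95.9 to 107 and 112 to 121 CPM in the 3 conditions without overlap, with log2 fold changes of 0.21 and 0.42 (adjusted p 0.57 and 0.088).

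The tested genes whose level moved most like each member over the 9 libraries were found from the root mean square difference of their log2 CPM, each centred on its own mean. For Nqo1 they were Mef2a (0.17) and Bdnf (0.18), against a median of 0.55 over all genes. For Gpx3 they were Foxm1 (0.13) and Ptger4 (0.17), against 0.64, and for Hmox1 Klf10 and Otud4 (0.19 each), against 0.61. The nearest to Gpx7 were Cdkn2d and Maged2 (0.11 and 0.12), to Gpx1 Pnpla2 and Arpc1b (0.08 and 0.09), to Gpx4 Nol12 and Itm2c (0.07 each) and to Gpx8 B3glct and Hnrnph2 (0.04 and 0.06). The nearest to Gclm were Ccdc71l and Armcx5 (0.08 and 0.09), to Srxn1 Gtf3c4 and Tardbp (0.07 each) and to Txnrd1 BC023829 and Gde1 (0.09 and 0.10). No member was among the nearest of another because members were left out of the search.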

How the data were processed

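RNA was polyA-selected from 9 MEF samples (3 per condition), made into TruSeq libraries and sequenced on 1 NextSeq500 chip with paired reads of 75 bases. The authors aligned reads with STAR to mm10 (GRCm38) and deposited raw read counts per gene from featureCounts, and how reads matching several genes were treated is not given in the sources used here. The counts of 22068 genes were analysed with edgeR 4.0.16 (R 4.3.3, limma 3.58.1) as a quasi-likelihood test with TMM factors and the replicate number as a block, since the study describes its samples as prepared in pairs. All 9 libraries shared 1 fit. Tested genes passed filterByExpr (14599) and had a mean FPKM, computed here from counts and merged exon length, over 2 in at least 1 condition (10100). p-values were adjusted by Benjamini-Hochberg over all tested genes and called under 0.05. Intervals of 95% use the moderated degrees of freedom (median 6.85). The prior count for log2 CPM was 2.

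The 10 genes and the other lists (130 genes, 129 of them listed) were chosen with earlier results of these data known. The text names all 10 genes and all regulators, up to 6 genes with the smallest unadjusted p under 0.05 in each other list, and the 2 nearest genes per member. Bach2, the silent peroxidases Gpx2, Gpx5 and Gpx6, Cul3 and Osgin1 are named for completeness. DESeq2 1.42.0, other scaling factors, other filters, no replicate block, only the 6 libraries compared, and fits without libraries were alternatives. Counting genes at an unadjusted p in the fits without libraries was chosen after seeing the data. The labels put the recovery after selection, while the study's methods put it before. Near-identical copies were searched with blastn 2.17.0 (75 bases, 97% identity) in GENCODE M21 transcripts, and sequences were read with Biopython 1.88. The fitting code was tested on simulated data.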

Additional observations from a re-analysis of the deposited data

How the results depend on the processing

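Nqo1 with metatherian CRX kept its direction under every alternative run, at log2 fold changes of 1.03 to 1.08 with all libraries of the comparison kept and 0.91 to 1.20 with libraries left out. Gpx3 did so with eutherian CRX (-1.31 to -0.94 with libraries left out) and with metatherian CRX (-0.83 to -0.54). Over all alternative runs, DESeq2 included, the adjusted p of Nqo1 was 2.1e-05 to 0.70. That of Gpx3 was 1.6e-05 to 0.80 with eutherian and 0.0080 to 0.70 with metatherian CRX. The calls of both genes depended on the setting.

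In metatherian CRX against control, 3 genes of all and 0 of the 10 passed the threshold. DESeq2 gave 1004 and 2 (Nqo1, Gpx3), the 6 libraries compared alone gave 398 and 1 (Nqo1), and fits without libraries gave 0 to 2252 and 0 to 4, with 888 and 2 without the third eutherian CRX library, 484 and 1 without the third metatherian CRX library, and 2252 and 4 (Nqo1, Gpx3, Gpx1, Gclm) without all 3 libraries numbered 3. In eutherian CRX against control, 61 and 0 became 333 and 1 with DESeq2, 109 and 1 (Gpx3, adjusted p 0.048) with no filter beyond 1 count, 0 and 0 with the 6 libraries alone, and 0 to 346 and 0 to 1 without libraries, with 16 genes without the second and 114 genes and Gpx3 without the third metatherian CRX library, and 0 genes without any single control or eutherian CRX library. Between the orthologues, 0 and 0 became 317 and 1 (Nqo1, adjusted p 0.0073) with DESeq2 and 0 to 2280 and 0 to 4 without libraries, with 349 and 1 without the third eutherian CRX library, 147 and 0 without the third metatherian CRX library, and 2280 and 4 (Nqo1, Gpx3, Gpx1, Hmox1) without those numbered 3. The cause was not tested.

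Without the replicate block the genes passing were 0 in both comparisons with the control, and 0 of the 10 genes passed there too. Of the 10, 2 (Nqo1 and Gpx7) rather than 3 had an unadjusted p under 0.05 with metatherian CRX, beside 1317 rather than 1969 of all genes, since Gpx3 went from 0.0063 to 0.074 (adjusted p 0.43), and Gpx3 with eutherian CRX had an adjusted p of 0.61. Deviations of same-numbered libraries correlated at over 0.1 in 8 of 9 pairs (0.0034 to 0.75), and 7 of 9 libraries correlated best with their own number. Libraries of unlike number reached 0.72, for control 1 with eutherian CRX 2, against 0.70 for control 1 with eutherian CRX 1. Deviations were taken from the mean of each condition, and the libraries numbered 3 stood apart in all of them. Same-numbered libraries can therefore correlate without being pairs, so these values cannot decide whether the numbers mark pairs. The labels do not say what a number stands for, and 1 pair was under 0.1.

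Small differences changed sign. Gpx8 with metatherian CRX was -0.0094 with upper-quartile factors. Between the orthologues Hmox1 was -0.084 and Gclm -0.0085 without the block, and Gclm was -0.033 with upper-quartile factors and -0.0055 with the 6 libraries alone.
With libraries left out the following log2 fold changes took both signs. In metatherian CRX against control these fits gave -0.13 to 0.44 for Gpx1, -0.052 to 0.24 for Gpx4, -0.094 to 0.12 for Gpx8, -0.014 to 0.66 for Hmox1, -0.32 to 0.046 for Gclm, -0.23 to 0.26 for Srxn1 and -0.029 to 0.27 for Txnrd1. In eutherian CRX against control these fits gave -0.14 to 0.28 for Gpx1, -0.028 to 0.17 for Gpx4, -0.25 to 0.047 for Gpx8, -0.40 to 0.67 for Hmox1, -0.017 to 0.41 for Nqo1, -0.28 to 0.026 for Gclm, -0.13 to 0.27 for Srxn1 and -0.054 to 0.22 for Txnrd1. Between the orthologues these fits gave -0.29 to 0.37 for Gpx1, -0.16 to 0.17 for Gpx4, -0.42 to 0.11 for Gpx7, -0.041 to 0.30 for Gpx8, -0.22 to 0.68 for Hmox1, -0.16 to 0.090 for Gclm, -0.26 to 0.083 for Srxn1 and -0.050 to 0.12 for Txnrd1.

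The 8 further NRF2 targets that were higher with metatherian CRX at an unadjusted p under 0.05 numbered 4 to 12 and the 2 lower ones 0 to 5 over all fits without libraries. All tested genes at that p moved too, from 1969 to 675 without the libraries numbered 1 and 2598 without the third metatherian CRX library. Without the libraries numbered 3, 2252 passed even the adjusted threshold. The list counts therefore cannot be read apart from the counts over all genes. Upper-quartile factors moved the genes at an unadjusted p under 0.05 from 913 higher and 1056 lower to 775 and 1189 in metatherian CRX against control, and from 748 and 417 to 597 and 574 between the orthologues. With 3 libraries a condition, the intervals of Gpx7 with eutherian CRX and of Hmox1 in every comparison spanned 0.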
